A study of Homo sapiens with 12 samples.

Results

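The induction of YAP5SA in cells without the JUN vector was read from 6 of the 12 libraries of the series, the 3 named vector Dox and the 3 named vector EtOH in their sample titles. All 6 were poly(A) RNA sequencing libraries of MCF10A, a non-tumorigenic human mammary epithelial line. Both groups carried the same doxycycline-inducible YAP5SA allele (iYAP5SA) and the same empty lentiviral vector, and differed in what was added to the medium, either doxycycline at 100 ng/ml (Dox) or ethanol, the solvent (EtOH). The other 6 libraries carried a JUN expression vector in place of the empty one and serve here only for a comparison of the induction. Per the study's methods the infected cells were selected with antibiotics, and the 3 libraries of a group are biological replicates. The medium of every library held hydrocortisone, which is a glucocorticoid, together with EGF, insulin, cholera toxin and horse serum. No library had Dox without the YAP5SA allele, so effects of Dox itself and of YAP5SA cannot be told apart.

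YAP is a transcriptional coactivator that has no DNA-binding domain of its own and reaches DNA mainly through the TEAD transcription factors. The kinases of the Hippo pathway, of which LATS1 and LATS2 act last, phosphorylate YAP on serines and so keep it out of the nucleus. In YAP5SA these serines are replaced by alanines, and the protein escapes this control. In epithelial cells active YAP is best known for a set of induced genes, such as CCN1, CCN2 and ANKRD1, while the genes that fall with it are less often described.

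Total counts of the 6 libraries were 20321850 to 26310600. Levels are given as CPM, the counts scaled to a common library size after TMM normalization, and a gene with at most 3 counts in each library of a group was taken as at the detection floor, which lay at 0.114 to 0.15 CPM. These floors cover counting error only. Vector Dox replicate 1 stood apart from its group, since its counts differed from those of replicates 2 and 3 with chi-square values of 62.0 and 49.7 per degree of freedom, where replicates 2 and 3 gave 9.50 between themselves and the EtOH libraries 17.6 to 22.4. The main counts are therefore also given without it, as are the larger ones that it moved by more than 1.5 times. Some very small counts that it also moved are not given again.

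YAP1 was examined first as the manipulated gene. YAP1 had 191.3, 171.1 and 175.9 CPM in EtOH and 216.1, 272.9 and 220.6 CPM in Dox. The 3 Dox libraries were the higher ones, but the log2 fold change of 0.40 (SE 0.16) did not pass the test (edgeR quasi-likelihood, Benjamini-Hochberg adjusted p 0.0819). A count on YAP1 sums the cell's own transcript and whatever part of the YAP5SA transcript aligns there, so it does not measure the transgene alone.

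Of 14775 genes tested, 4443 (30.1%) were called, meaning an adjusted p under 0.05 in the edgeR quasi-likelihood test after Benjamini-Hochberg adjustment over all genes. The called genes were divided almost evenly, with 2309 higher (15.6%) and 2134 lower (14.4%) in Dox. Over all called genes the repressed side held the larger changes, but not among the most abundant genes. The median log2 fold change was 0.55 among genes called higher and -0.73 among genes called lower, and 419 higher genes (2.84%) against 692 lower genes (4.68%) changed at least 2-fold. At a log2 fold change of at least 2 there were 119 higher (0.805%) and 169 lower genes (1.14%), and at 3 there were 47 (0.318%) and 55 (0.372%). The excess of 2-fold falls came mainly from scarce genes. With a mean level of at most 3.47 CPM, 158 genes were higher and 352 lower by at least 2-fold. From 3.49 to 15.4 CPM these counts were 88 and 161, and from 15.4 to 36.2 CPM 63 and 63. From 36.2 to 79.6 CPM they were 39 and 65, and at 79.6 CPM and above 71 and 51. Over all genes tested, the 3 Dox libraries lay above the 3 EtOH libraries for 22.6% and below them for 21.3%. Without vector Dox replicate 1 the calls were 2194 higher and 2095 lower.

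**Figure D1:**
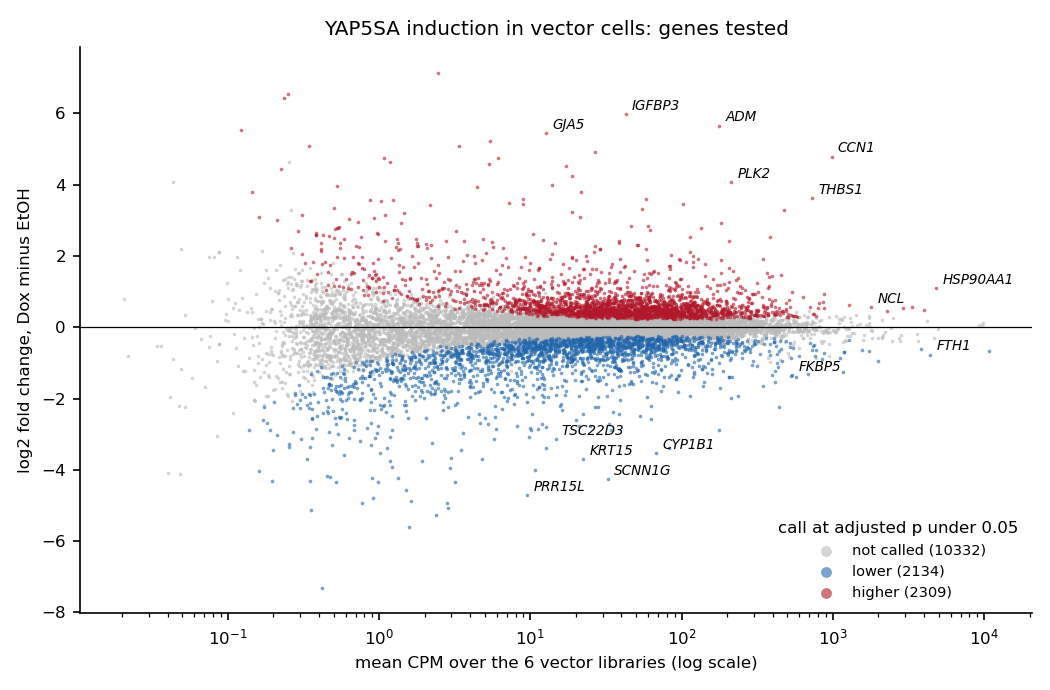
Each point is 1 of the genes tested, with its mean CPM over the 6 vector libraries on a log scale (horizontal) and its log2 fold change, Dox minus EtOH (vertical); genes with hardly any counts in these libraries are not drawn. Red points are the 2309 genes called higher, blue points the 2134 called lower, and the blue points reach further at low levels.

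Induced and repressed genes differed in how abundant their RNA was. Among the fifth of genes with the lowest mean level (at most 3.47 CPM), 6.6% were called higher and 15.5% lower, and among the fifth with the highest level (79.6 CPM and above) 21.2% were higher and 10.1% lower. The median level over the 6 libraries was 39.2 CPM for genes called higher and 16.2 CPM for genes called lower. Genes called higher together gained 77800 CPM and genes called lower together lost 59100 CPM. The exons of genes called lower were richer in G and C, with a median GC content of 53.1% against 46.5% for genes called higher and 47.1% for genes not called. After a correction of each library for GC content 2451 genes were higher and 2258 lower.

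Genes on the target lists of the study were called higher far more often than others, but the lists are short. The study had drawn up a list of genes induced by YAP and a list of genes that depend on YAP and TAZ. Of the 533 tested genes on either list 319 were called higher, where 15.6% of all genes were, and these lists are the study's own and not independent evidence. The other 1990 (86.2%) of the 2309 genes called higher stood on neither. Of the 2134 genes called lower, 18 stood on either list. In bulk RNA a lower level in each cell and a smaller share of cells with the transcript cannot be told apart.

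Promoters of the strongly induced genes were inspected for the core letters of the TEAD site, GGAATG, and of the AP-1 site, TGANTCA, on both strands of a short RefSeq window that lies mostly before the gene's start. The TEAD letters were found in 16.8% of the windows of genes called higher at least 2-fold (52 of 310 windows given), in 10.6% of those of genes called lower at least 2-fold, in 10.8% of those of genes not called and in 14% of all windows. The AP-1 letters were found in 6.13%, 8.84%, 4.74% and 7.76% of the same sets of windows. The following windows are shown because they belong to induced genes with the largest rises whose windows hold the TEAD letters, written in capitals, together with CCN2, a textbook YAP target.

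ANKRD1 (GRCh38.p14, chr10:90921038-90921337, minus strand): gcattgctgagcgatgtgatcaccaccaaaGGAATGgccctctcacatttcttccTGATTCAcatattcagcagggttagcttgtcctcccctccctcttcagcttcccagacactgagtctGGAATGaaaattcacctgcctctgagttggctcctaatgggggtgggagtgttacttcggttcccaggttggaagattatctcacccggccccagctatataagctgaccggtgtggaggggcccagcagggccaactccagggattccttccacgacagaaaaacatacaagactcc
CCN2 (GRCh38.p14, chr6:131951323-131951622, minus strand): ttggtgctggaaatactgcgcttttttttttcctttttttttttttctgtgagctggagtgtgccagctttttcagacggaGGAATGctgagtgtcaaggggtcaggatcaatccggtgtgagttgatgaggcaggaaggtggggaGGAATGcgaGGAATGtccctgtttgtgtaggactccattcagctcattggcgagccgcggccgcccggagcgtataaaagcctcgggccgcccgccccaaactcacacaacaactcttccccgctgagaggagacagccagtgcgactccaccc
THBS1 (GRCh38.p14, chr15:39580829-39581128, plus strand): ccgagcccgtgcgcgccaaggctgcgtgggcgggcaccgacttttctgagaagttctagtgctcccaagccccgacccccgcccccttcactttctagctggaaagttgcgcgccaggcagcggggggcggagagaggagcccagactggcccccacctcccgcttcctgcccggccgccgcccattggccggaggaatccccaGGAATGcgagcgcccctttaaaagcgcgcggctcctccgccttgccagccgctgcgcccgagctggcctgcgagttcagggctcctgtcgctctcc
IRS1 (GRCh38.p14, chr2:226799771-226800070, minus strand): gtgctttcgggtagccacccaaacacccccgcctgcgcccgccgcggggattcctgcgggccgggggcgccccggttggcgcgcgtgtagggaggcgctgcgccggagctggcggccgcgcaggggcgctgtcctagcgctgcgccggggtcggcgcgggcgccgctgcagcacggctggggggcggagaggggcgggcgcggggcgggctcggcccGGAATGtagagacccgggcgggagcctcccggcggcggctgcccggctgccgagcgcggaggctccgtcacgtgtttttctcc

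In ANKRD1 the middle run in capitals is an AP-1 match, and the pattern TGANTCA fits it on either strand. The window of CCN2 held 3 TEAD matches, that of ANKRD1 held 2 and those of THBS1 and IRS1 held 1 each. The windows of IGFBP3, ADM, GJA5 and PLK2, which also rose strongly, held none of either kind. A match is a run of letters and not a bound site.

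The genes described next had the highest log2 fold changes among called genes that averaged 5 CPM or more and whose groups did not overlap. Non-overlap was thus a condition of their choice, and 96.8% of all genes called higher met it. Less abundant genes with larger fitted changes are not described. IGFBP3 (Entrez gene 3486, GRCh37 chromosome 7, 45951844 to 45961473), a secreted protein that binds insulin-like growth factors, had 1.56, 1.15 and 1.21 CPM in EtOH and 101.9, 76.2 and 73.8 CPM in Dox. ADM (Entrez gene 133, GRCh37 chromosome 11, 10326620 to 10328944), which encodes the vasodilating peptide adrenomedullin, went from 6.24, 6.79 and 7.63 CPM to 443.6, 272.2 and 326.7 CPM. GJA5, a connexin of gap junctions, went from 0.723, 0.449 and 0.494 CPM to 23.7, 26.7 and 24.5 CPM. In these 3 genes every Dox library lay more than an order of magnitude above every EtOH library. Their log2 fold changes were 5.98 (SE 0.29), 5.66 (SE 0.19) and 5.45 (SE 0.19), with edgeR adjusted p values (Benjamini-Hochberg) of 2.17e-09, 6.66e-11 and 6.66e-11.

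Growth factors and their docking proteins were among these genes. PDGFB, a ligand of the platelet-derived growth factor receptors, had 0.684, 0.0998 and 0.449 CPM in EtOH and 10.7, 12.3 and 12.2 CPM in Dox, a log2 fold change of 4.75 (SE 0.35). NRG1, a ligand of the ERBB receptors, rose from 2.02, 1.25 and 1.57 to 22.0, 28.3 and 28.0 CPM. NRG2, a relative of it, went the other way, from 3.50, 4.44 and 4.13 to 0.392, 0.541 and 0.331 CPM. ANKRD1, an ankyrin repeat protein of the nucleus, had 0.304, 0.249 and 0.269 CPM in EtOH and 10.9, 9.38 and 11.4 CPM in Dox. IRS1, the docking protein of the insulin and IGF receptors, had 10.6, 6.14 and 9.51 CPM in EtOH and 78.9, 132.8 and 111.4 CPM in Dox. In NRG2, which was not chosen by that rule, the groups did not overlap either. S1PR1, a receptor for sphingosine 1-phosphate that stands on neither target list, rose by 3.48 (SE 0.21) on the log2 scale.

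Kinases, matrix proteins and a clotting factor rose from a higher starting level. PLK2, a polo-like kinase, went from 25.3, 23.4 and 22.8 CPM to 376.2, 434.4 and 389.3 CPM. THBS1, the matricellular protein thrombospondin-1, went from 130.1, 87.3 and 107.2 CPM to 1117, 1467 and 1437 CPM. F3, the tissue factor that starts blood clotting, had 109.9, 70.9 and 81.7 CPM in EtOH and 1051, 789 and 743.4 CPM in Dox. CCN1, a matricellular protein, had 71.0, 56.2 and 78.4 CPM in EtOH and 1978, 1906 and 1802 CPM in Dox. The 3 Dox libraries of CCN1 lay within a narrow range, and the log2 fold change was 4.79 (SE 0.14). ADAMTS1, a secreted metalloprotease, and SFTA1P, a long noncoding transcript, rose by 3.59 (SE 0.22) and 4.54 (SE 0.17). All of these genes had edgeR adjusted p values (Benjamini-Hochberg) of 3.12e-08 or less.

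**Figure D2:**
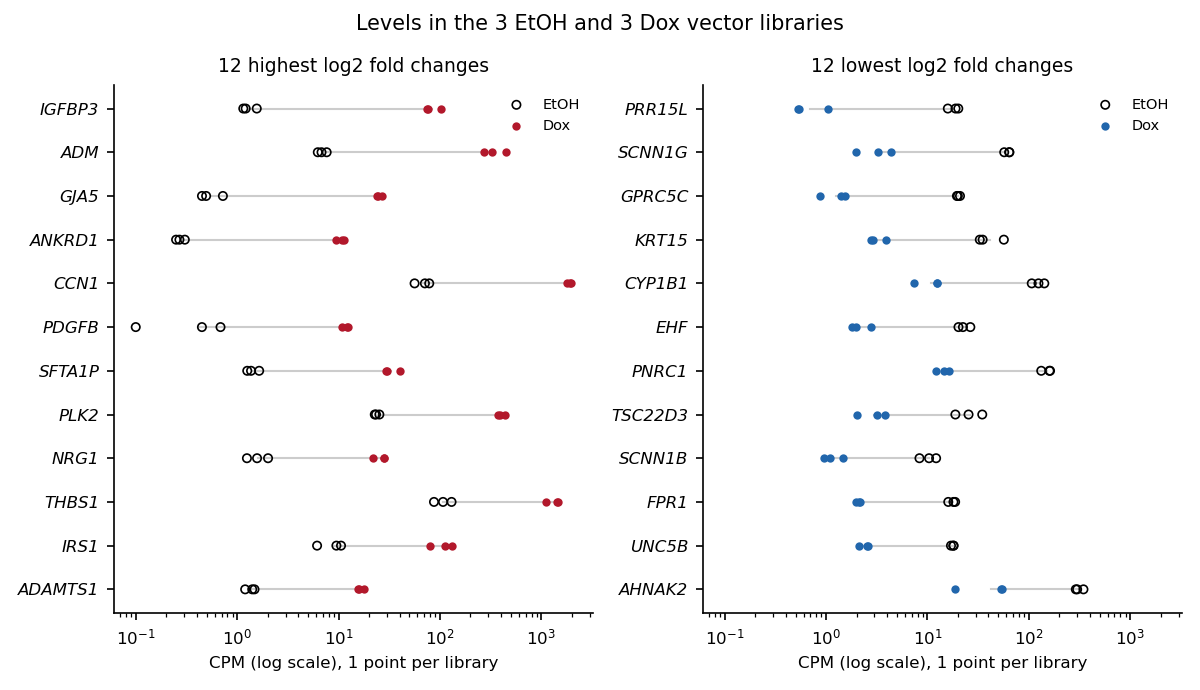
CPM on a log scale in each of the 3 EtOH (open circles) and 3 Dox (filled circles) vector libraries, for the 12 genes that rose most (left, red) and the 12 that fell most (right, blue) on the log2 scale, taken from called genes that averaged 5 CPM or more. The grey line joins the group means. Only genes whose groups did not overlap were eligible.

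Members of a published core of YAP targets and of the Hippo pathway were called higher more often than lower. Of 22 tested genes of the conserved YAP signature, 17 were called higher and 0 lower (19 higher without vector Dox replicate 1), with a median log2 fold change of 1.52, where the median of all genes was 0.007. The summed level of the signature was 1240 to 1500 CPM in EtOH and 5910 to 6420 CPM in Dox. That these genes rise is what the list was made from in other work. Of 26 tested kinases and regulators of the Hippo pathway, 13 were higher and 1 was lower, and without vector Dox replicate 1 there were 15 higher. The shares over all genes were 15.6% higher and 14.4% lower. AMOTL2, an angiomotin that holds YAP at cell junctions, went from 126.4, 97.2 and 115.9 CPM to 548, 743.7 and 656.8 CPM. FRMD6 and WTIP, other regulators of the LATS kinases, rose by 1.90 (SE 0.12) and 1.54 (SE 0.12). MAP4K4, an upstream kinase, was the member called lower, at -0.40, and was no longer called without vector EtOH replicate 1 or 3.

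The factors that YAP works with changed unevenly. TEAD1 rose from 134.4, 94.6 and 133 CPM to 190.8, 352.3 and 329.4 CPM, with vector Dox replicate 1 the lowest of its group. TEAD4 rose by 0.80 (SE 0.12), whereas TEAD2 fell by 0.62 on the log2 scale. Of 16 tested AP-1 genes and their bZIP partners 8 were higher and 4 lower, with 2 lower without vector EtOH replicate 1. Among all genes 15.6% were higher and 14.4% lower. JUN itself had 55.0, 35.5 and 52.2 CPM in EtOH and 188.3, 186.5 and 194.4 CPM in Dox. FOSL1, a FOS relative, rose by 1.44 (SE 0.13), but FOS fell from 22.5, 26.0 and 18.4 CPM to 2.75, 4.15 and 2.77 CPM. The groups did not overlap for JUN, FOSL1 or FOS.

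Of 47 tested genes of ribosome biogenesis, the nucleolar factors that process ribosomal RNA, 32 (68.1%) were called higher and 0 lower, against 15.6% of all genes. Their median log2 fold change was 0.46 and the largest was 0.88, so none of the rises reached 2-fold. The count was also 32 without vector Dox replicate 1. NCL, the nucleolar protein nucleolin, had 1427, 1315 and 1562 CPM in EtOH and 2163, 2102 and 2150 CPM in Dox. BYSL, a factor of the small subunit, had 57.8, 55.8 and 60.1 CPM in EtOH and 114.7, 98.3 and 106.5 CPM in Dox. MRTO4 and LYAR rose by 0.83 (SE 0.16) and 0.74. Of 81 tested genes of cytosolic ribosomal proteins 3 were called higher and 0 lower, with a median of -0.05.

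Of 18 genes of the heat shock response 9 were higher and 2 lower, also without vector Dox replicate 1. HSP90AA1, the inducible cytosolic HSP90, had 2929, 3049 and 3270 CPM in EtOH and 7881, 5736 and 6105 CPM in Dox. HSP90AA1 gained 685 CPM per kilobase of exon, among the 5 largest gains of all called genes. HSPA8, the constitutive HSP70, rose by 0.53 (SE 0.12) and CHORDC1, a partner of HSP90, by 0.96 (SE 0.11). HSPB8, a small heat shock protein, was lower by 1.18 at about 2 CPM. Of 13 subunits of the cytosolic chaperonin and prefoldin 5 were higher and 0 lower, but 1 was higher without vector Dox replicate 1, vector EtOH replicate 1 or vector EtOH replicate 3. Of 23 genes of the unfolded protein response 6 were higher and 1 lower, and of 38 proteasome subunits 3 (7.89%) were higher and 0 lower, a share under the 15.6% of all genes. Without vector Dox replicate 1, 3 proteasome subunits were lower.

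Genes of the cell cycle rose in number more than in size. Over all genes tested 15.6% were higher and 14.4% lower. Among 52 tested genes of DNA replication 26 were higher and 1 lower, and among 54 of mitosis 22 (40.7%) were higher and 1 lower. Without vector Dox replicate 1 these counts of higher genes were 21 and 20. CDC6, which loads the replicative helicase, had 59.2, 48.6 and 51.7 CPM in EtOH and 117.3, 112.4 and 101.2 CPM in Dox. UHRF1, a maintenance factor of DNA methylation, rose by 1.01 (SE 0.18), KIF23, a kinesin of cytokinesis, by 0.87 (SE 0.10), and CDC20, an activator of the anaphase-promoting complex, by 0.83 (SE 0.12). MKI67, the proliferation marker Ki-67, was not called, with 648.3, 453.8 and 648.4 CPM in EtOH and 278.7, 738.6 and 728.4 CPM in Dox. Vector Dox replicate 1 was the lowest of all 6 libraries for it, and the groups overlapped. CDC25B, a phosphatase that activates mitotic kinases, was the exception among the mitotic genes and fell from 304, 303.3 and 289.8 CPM to 106, 116.5 and 118.7 CPM.

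Of 16 tested D cyclins, CDK inhibitors and genes of the RB pathway 6 were higher and 4 lower, with a median log2 fold change of 0.21. The shares over all genes were 15.6% higher and 14.4% lower. CCND1, the cyclin D1 gene, had 268.9, 208.3 and 249.3 CPM in EtOH and 582.7, 730.9 and 679.2 CPM in Dox. CCND2 and CDK6, the latter a partner kinase of D cyclins, rose by 2.11 (SE 0.16) and 1.16 (SE 0.20). CDKN1C, the CDK inhibitor p57, fell from 10.6, 17.3 and 14.9 CPM to 1.88, 2.34 and 1.98 CPM. The groups did not overlap in CCND1 or CDKN1C.

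Sterol, cytoskeletal and caveolar genes had smaller groups of calls. Of 24 genes of cholesterol synthesis and its control 11 were higher and 1 lower, but this count fell to 5 without vector EtOH replicate 2, to 4 without vector EtOH replicate 3 and to 5 without vector Dox replicate 2. HMGCS1, which makes the precursor of mevalonate, had 118.4, 100.8 and 108.5 CPM in EtOH and 250.8, 293.9 and 196.4 CPM in Dox. INSIG1, a sterol sensor, rose by 1.25 (SE 0.18). Of 28 actin, myosin and SRF-linked genes 6 (21.4%) were higher and 0 lower, with a median of 0.10, where 15.6% of all genes were higher. TPM1, a tropomyosin, and CNN3, a calponin, rose by 1.71 (SE 0.11) and 1.5 (SE 0.14), while ACTB was not called (0.12). Of 9 tested caveolar genes 4 were higher and 2 lower, where 14.4% of all genes were lower, and 1 was lower without vector Dox replicate 1. CAV1 and CAV2, the coat proteins of caveolae, rose by 0.93 (SE 0.10) and 0.83 (SE 0.09), while CAVIN3 was called lower.

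Cytokine genes went both ways outside the chemokines. Of 9 tested chemokines 4 were higher and 0 lower, and 3 were higher without vector Dox replicate 1. Of 11 tested genes of the interleukin-1 family 3 were higher and 3 lower, and of 16 IL6-type cytokines and receptors 4 were higher and 4 lower. The larger family of interleukins and their receptors, which shares members with these lists, had more genes called lower. Of its 44 tested members 6 (13.6%) were higher and 13 (29.5%) lower, with a median log2 fold change of -0.39. Of 19 TNF ligands and receptors 3 (15.8%) were higher and 5 (26.3%) lower. Among all genes 15.6% were higher and 14.4% lower, so the higher shares of the interleukin family and the TNF genes were near that of all genes. CXCL1, which attracts neutrophils, had 72.3, 42.5 and 42.1 CPM in EtOH and 286.2, 158.8 and 116.5 CPM in Dox, with replicate 1 the highest in both groups. CCL20 rose by 1.78 (SE 0.23), LIF, a cytokine of the same family as IL6, by 2.27 (SE 0.25), and IL7R, the interleukin-7 receptor chain, by 3.11. SOCS1, a brake on cytokine signalling, was lower, from a mean of 0.626 CPM to 0.0421 CPM, which is at the detection floor. Phosphatases of the MAP kinases went both ways, with DUSP5 up by 2.31 (SE 0.13) and DUSP6 down by 1.37 on the log2 scale.

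**Figure D3:**
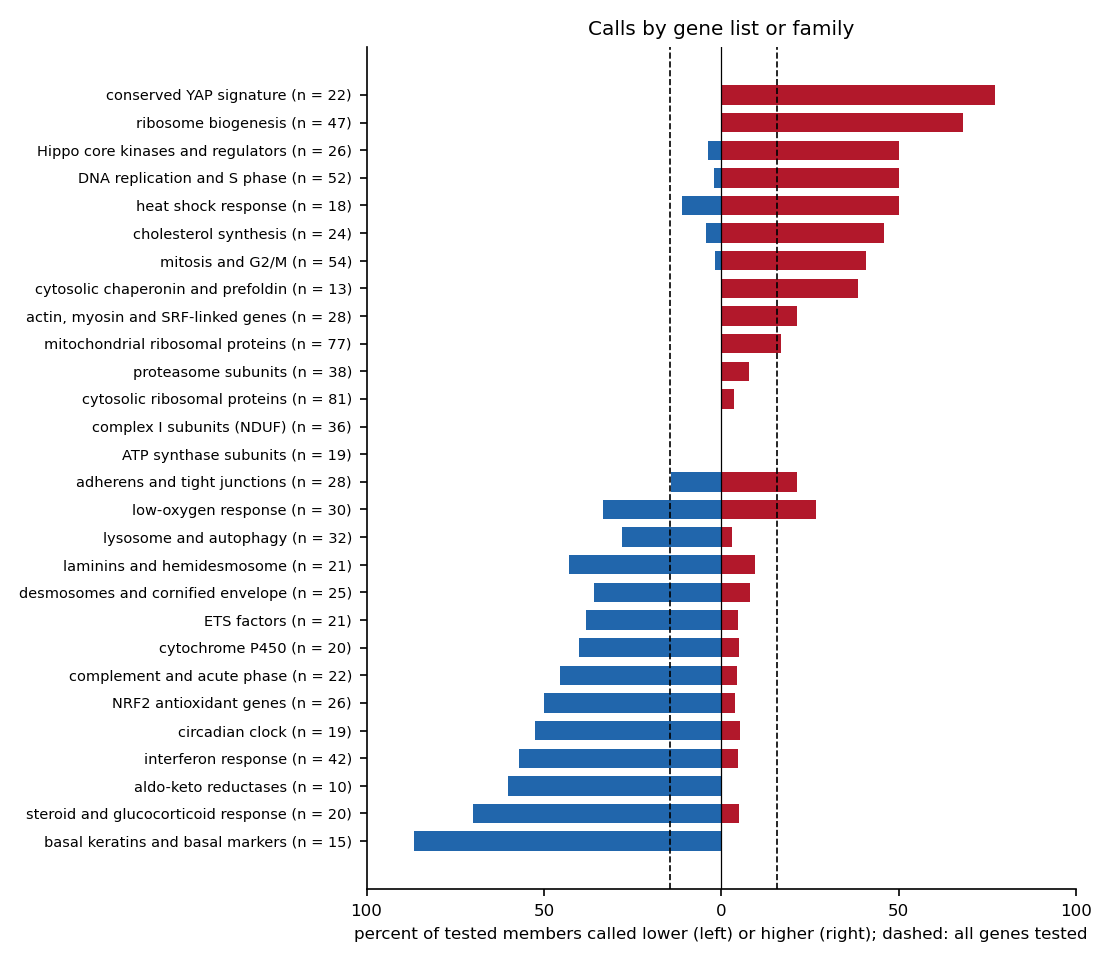
For 28 gene lists or families, the percent of tested members called higher (red, to the right) and called lower (blue, to the left), with the number tested in parentheses. The dashed lines mark the same shares over all genes tested, 15.6% higher and 14.4% lower, and the bars run from 77.3% higher for the conserved YAP signature to 86.7% lower for the basal keratins and basal markers. The lists were chosen with earlier results of these data known, and some share members.

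On the repressed side, too, the genes described first are those that fell most among called genes averaging 5 CPM or more. Groups that did not overlap were again a condition, which 97.9% of all genes called lower met. PRR15L (Entrez gene 79170, GRCh37 chromosome 17, 46029333 to 46035249) had 15.9, 20.2 and 18.9 CPM in EtOH and 0.523, 1.04 and 0.537 CPM in Dox. SCNN1G (Entrez gene 6340, GRCh37 chromosome 16, 23194066 to 23228204), the gamma subunit of the epithelial sodium channel, fell from 64.1, 64.3 and 57.2 CPM to 3.27, 4.42 and 1.98 CPM. SCNN1B, its beta subunit, had 10.4, 12.2 and 8.35 CPM in EtOH and 1.48, 1.08 and 0.95 CPM in Dox. The highest Dox library of each of these 3 genes was far below the lowest EtOH library. Their log2 fold changes were -4.71 (SE 0.30), -4.27 (SE 0.27) and -3.13 (SE 0.32), with edgeR adjusted p values (Benjamini-Hochberg) of 3.42e-08, 3.42e-08 and 4.27e-06.

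Receptors and a large scaffold protein were also among them. GPRC5C, an orphan G protein-coupled receptor, had 19.5, 20.0 and 21.0 CPM in EtOH and 1.53, 1.40 and 0.867 CPM in Dox. FPR1, a receptor for formyl peptides, went from 16.1, 18.1 and 18.8 to 2.09, 1.98 and 2.15 CPM, and UNC5B, a receptor for netrins, from 18.1, 17.1 and 18.0 to 2.09, 2.57 and 2.52 CPM. AHNAK2, a very large scaffold protein, went from 345.9, 290.8 and 299.9 CPM to 18.7, 53.7 and 54.4 CPM, with vector Dox replicate 1 the lowest. MUC1, a transmembrane mucin, fell by 1.99 on the log2 scale (SE 0.25), from 396.6, 349.1 and 266 to 56.4, 99.3 and 99.2 CPM.

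Some transcription factors of epithelial cells fell with them. GATA3 and TFAP2C, factors on a list of luminal markers, were called higher, by at most 0.58 on the log2 scale. EHF, an epithelial ETS factor, had 22.4, 26.5 and 20.2 CPM in EtOH and 1.96, 2.79 and 1.82 CPM in Dox. ELF3, a related factor, had 5.13, 8.68 and 5.30 CPM in EtOH and 0.567, 0.676 and 0.496 CPM in Dox. Of 21 tested ETS factors 8 (38.1%) were lower and 1 higher, against 14.4% lower and 15.6% higher among all genes. ETS1 was the 1 called higher and rose from 75.1, 55.1 and 65.4 to 199.1, 234.2 and 231.4 CPM. PNRC1, a nuclear receptor coactivator, fell from 159.9, 162 and 132.6 CPM to 12.1, 14.7 and 16.5 CPM. In ELF3 and ETS1, which were not chosen for it, the groups did not overlap either.

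Basal keratins and basal markers were lower as a group. The members, like those of the other lists, were chosen with earlier results of these data known. Of 15 tested members 13 (86.7%) were lower and 0 higher, against 14.4% lower among all genes, with a median log2 fold change of -1.09, and the count was also 13 without vector Dox replicate 1. Their summed level was 10300 to 11100 CPM in EtOH and 5390 to 6730 CPM in Dox. KRT15 fell from 32.9, 56.7 and 35.0 CPM to 2.88, 3.92 and 2.77 CPM. KRT16 fell from 63.2, 61.7 and 46.2 CPM to 7.76, 8.83 and 9.58 CPM. KRT14, a keratin of basal cells, had 272.9, 198.2 and 156.5 CPM in EtOH and 75.1, 65.5 and 59.4 CPM in Dox. KRT5, the partner of KRT14, had 4634, 4514 and 4697 CPM in EtOH and 2478, 3407 and 3171 CPM in Dox, a smaller fall of 0.61 on the log2 scale (SE 0.17). KRT7, a keratin of simple epithelia, was higher by 0.49 (SE 0.16, edgeR Benjamini-Hochberg adjusted p 0.0321, and no longer called without vector Dox replicate 1 or 3 or without any one of the EtOH libraries). Of 19 tested luminal markers, KRT7 among them, 5 (26.3%) were higher and 5 (26.3%) lower, where 15.6% of all genes were higher. Among 4 general epithelial markers 0 were called in either direction.

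Genes of laminins, hemidesmosomes, desmosomes and the cornified envelope were called lower more often than higher. Of 21 tested laminins and hemidesmosome genes 9 were lower and 2 higher, but 5 were lower without vector EtOH replicate 1. Among all genes 14.4% were lower and 15.6% higher. Of 25 tested desmosomal and cornified envelope genes 9 were lower and 2 higher. ITGB4, the integrin of hemidesmosomes, had 811.7, 740 and 722 CPM in EtOH and 214.3, 340.5 and 332.3 CPM in Dox. DSG3, a desmosomal cadherin, had 103.4, 89.9 and 91.0 CPM in EtOH and 20.5, 25.7 and 26.3 CPM in Dox. JUP, plakoglobin, fell by 0.94 on the log2 scale (SE 0.19) and LAMB2, a laminin chain, by 0.86 (SE 0.10). ALOX15B, a lipoxygenase of differentiated epithelium, fell by 2.76 (SE 0.20). Of 28 adherens and tight junction genes 6 (21.4%) were higher and 4 (14.3%) lower, the latter near the share of all genes. Without vector Dox replicate 3, 2 were lower. Of 14 tested S100 genes 5 were lower and 0 higher, and 8 were lower without vector Dox replicate 1. Among the 5 were S100A8, S100A9 and S100A14 with log2 fold changes of -1.40, -1.25 and -0.90.

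Genes known to respond to glucocorticoids fell, with hydrocortisone present in the medium of both groups. Of 20 tested members of the list 14 (70.0%) were lower and 1 higher, against 14.4% lower and 15.6% higher among all genes. Their median log2 fold change was -1.04, and 13 were lower without vector Dox replicate 1. TSC22D3, the glucocorticoid-induced leucine zipper, had 18.9, 34.7 and 25.4 CPM in EtOH and 3.79, 3.16 and 2.02 CPM in Dox. FKBP5, a chaperone of the glucocorticoid receptor, had 797.3, 735.8 and 780.6 CPM in EtOH and 241.1, 358.5 and 312.4 CPM in Dox. PDK4, a kinase that restrains pyruvate dehydrogenase, fell from 14.9, 19.2 and 18.6 CPM to 2.31, 2.57 and 2.48 CPM. SGK1, a kinase that glucocorticoids also induce, was the member of the list called higher and rose by 0.53 (SE 0.14). In TSC22D3, FKBP5 and PDK4 the groups did not overlap.

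Of 19 tested circadian clock genes 10 (52.6%) were lower and 1 higher, against 14.4% lower and 15.6% higher among all genes. Without vector Dox replicate 1, 10 were also lower, although 6 of the 19 share exons with a neighbour and are uncertain. PER2 had 11.8, 11.5 and 10.6 CPM in EtOH and 2.75, 2.66 and 2.73 CPM in Dox. PER1 fell by 0.57 on the log2 scale (SE 0.15). CRY1, a partner of the PER proteins in repression, was the member that rose, from 13.6, 12.9 and 12.3 to 35.7, 37.8 and 36 CPM. KLF9, a Kruppel-like factor, fell by 1.77 (SE 0.19). Of 15 tested Kruppel-like factors 6 (40.0%) were lower and 2 higher, KLF15 being among those called higher. FOXO1, a forkhead factor that insulin signalling keeps out of the nucleus, fell from 97.3, 81.5 and 106.3 to 23.5, 37.9 and 36.6 CPM.

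The resting level of interferon-stimulated genes was lower. Of 42 tested genes 24 (57.1%) were lower and 2 higher, against 14.4% lower and 15.6% higher among all genes. Their median log2 fold change was -0.54, and 22 were lower without vector Dox replicate 1. The summed level went from 1670 to 1830 CPM in EtOH to 1250 to 1360 CPM in Dox. OAS1, a sensor of double-stranded RNA, had 7, 6.44 and 5.88 CPM in EtOH and 2.18, 2.34 and 2.31 CPM in Dox. OASL fell by 1.83 (SE 0.30) on the log2 scale and GBP2 fell by 1.78 (SE 0.23). IFITM3, which restricts entry of viruses, had 470.5, 554.6 and 457.6 CPM in EtOH and 351.5, 366.1 and 312 CPM in Dox. GBP3, another guanylate-binding protein, rose by 0.64 (SE 0.13). Of 17 tested genes of antigen presentation 4 were lower and 1 higher, and 7 were lower without vector Dox replicate 1. Of 22 complement and acute phase genes 10 were lower and 1 higher, and C3, the central complement component, had 1663, 1344 and 1340 CPM in EtOH and 550.6, 976 and 853.1 CPM in Dox.

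**Figure D4:**
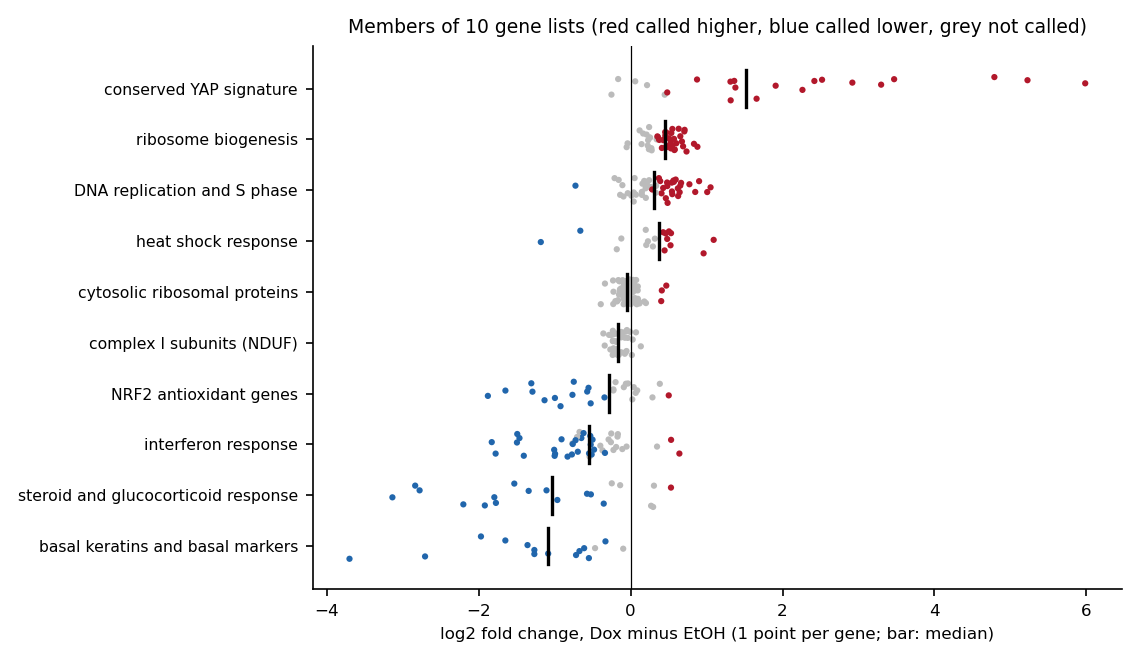
Log2 fold change, Dox minus EtOH, of each tested member of 10 gene lists; red points were called higher, blue points lower and grey points not called, and the black bar is the median of the list. The medians run from 1.52 in the conserved YAP signature to -1.09 in the basal keratins and basal markers, and cytosolic ribosomal proteins and complex I subunits cluster around 0.

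Detoxifying and antioxidant genes were called lower more often than higher. Of 26 tested genes of the NRF2 antioxidant response 13 were lower and 1 higher, with 15 lower without vector Dox replicate 1. Of 10 tested aldo-keto reductases 6 were lower and 0 higher, and of 20 cytochrome P450 genes 8 were lower and 1 higher. Of 15 metallothioneins and metal transporters 6 were lower and 2 (13.3%) higher. The shares over all genes were 14.4% lower and 15.6% higher, so the higher share of the metallothionein list was near that of all genes. The metallothionein and metal transporter count was 3 lower without vector Dox replicate 3 and 8 lower without vector Dox replicate 1, and leaving out any single library left at most 1 higher. CYP1B1, a cytochrome P450 that oxidizes estrogens and aromatic hydrocarbons, had 124.5, 106.9 and 142.2 CPM in EtOH and 7.41, 12.4 and 12.5 CPM in Dox. AKR1C2, an aldo-keto reductase of steroids, had 77.8, 89.3 and 77.2 CPM in EtOH and 34.1, 30.3 and 34.2 CPM in Dox. AKR1C2 has near-identical relatives between which reads can be divided, so its own level is uncertain. FTH1, the ferritin heavy chain, had 5684, 6080 and 4793 CPM in EtOH and 3360, 3003 and 3371 CPM in Dox. FTH1 fell by 1135 CPM per kilobase of exon, the largest loss among called genes. ABCC2, an efflux pump for conjugated compounds, fell by 1.65 on the log2 scale (SE 0.13). SRXN1, which repairs oxidized peroxiredoxins, was the exception of the antioxidant list and rose by 0.50 (SE 0.08).

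Of 32 tested genes of lysosomes and autophagy 9 (28.1%) were lower and 1 higher, but 5 were lower without vector Dox replicate 3. Among all genes 14.4% were lower and 15.6% higher. CTSD, the protease cathepsin D, had 577.8, 587.2 and 565.3 CPM in EtOH and 211.5, 255.8 and 278.8 CPM in Dox. TFEB, a regulator of lysosomal genes, fell by 1.87 (SE 0.19), while its relative MITF rose by 1.33 (SE 0.13). SOD2, the mitochondrial superoxide dismutase, fell from 1039, 844.1 and 603.6 to 348.7, 348.8 and 249.2 CPM. Genes of the low-oxygen response went both ways, with 8 of 30 higher and 10 lower. ADM is the member of that list that rose most, while DDIT4, an inhibitor of mTORC1, fell from 704.9, 774 and 693.2 CPM to 150, 172.5 and 136.6 CPM. ANGPTL4, a secreted inhibitor of lipoprotein lipase, fell by 1.92 (SE 0.19).

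Adhesion and guidance receptors had more members called lower than higher, where 14.4% of all genes were lower and 15.6% higher. Of 10 tested plexins and neuropilins 5 were lower and 0 higher, of 18 adhesion G protein-coupled receptors 8 were lower and 2 higher, and of 17 ephrins and Eph receptors 6 were lower and 2 higher. EPHB6, an Eph receptor without kinase activity, fell by 3.70 on the log2 scale and ADGRG1 fell from 37.4, 38.7 and 36 to 5.49, 8.29 and 6.86 CPM. SEMA7A, a membrane-anchored semaphorin, rose by 3.25. Of 55 tested protocadherins 30 were lower and 3 higher, but the genes of the gamma cluster share their last exons and so share reads. Among the 17 protocadherins without shared exons 7 were lower and 3 higher. Without vector Dox replicate 1, 13 of the 55 were called higher and 28 lower.

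The call on the respiratory chain rested on vector Dox replicate 1. Of 36 tested complex I subunits and 19 ATP synthase subunits 0 were called in either direction by the edgeR quasi-likelihood test, with medians of -0.16 and -0.07, and of 21 subunits of complexes III and IV 1 was lower. At an unadjusted p under 0.05 there were 3 complex I and 0 ATP synthase subunits, and DESeq2 called 1 and 0. Without vector Dox replicate 1, however, 16 complex I subunits, 13 subunits of complexes III and IV and 6 ATP synthase subunits were called lower, and 0 were called higher. Of the cytosolic ribosomal proteins 1 was then higher and 5 lower. Housekeeping reference genes, 15 tested, had 1 call in each direction. Of 805 long noncoding transcripts 11.1% were called higher and 12% lower, against 16.1% and 15% of 13229 protein-coding genes. Upper-quartile scaling lowered the median of all genes by 0.048 and gave 1896 genes higher and 2472 lower.

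Markers of other cell types were checked because they could move with these groups. Of 5 leukocyte markers 3 were at the detection floor in all 6 libraries, and the summed level was 28.2 to 29.9 CPM in EtOH and 17.1 to 19.6 CPM in Dox, nearly all of it CD68, which epithelial lysosomes also hold. The part of these markers in the results above was not tested. The 4 endothelial markers summed to 1.97 to 2.70 CPM in EtOH and 1.22 to 1.49 CPM in Dox. The 7 fibroblast markers summed to 111 to 125 CPM in EtOH and 122 to 162 CPM in Dox, most of it PDGFRA, and COL1A1 and DCN, which define fibroblasts, had means of 3.30 and 5.97 CPM in EtOH and 1.52 and 3.15 CPM in Dox. The line's own basal markers were present in every library, and 5 of the 7 were lower in Dox. Of 5 mature luminal markers 2 were at the detection floor throughout.

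The response was compared with YAP5SA induction in the JUN cells, which used other libraries. In JUN cells 11.2% of all genes were called higher and 10.3% lower on induction. Deviations of single JUN libraries from their group mean correlated with exon GC content at -0.356 to 0.360, against -0.0886 to 0.0756 in vector libraries. How far this lowered the number of calls in JUN cells was not tested. Levels in JUN cells are not given here, so a smaller change is not told apart from a different uninduced level. Of the 2309 genes called higher in vector cells 1248 (54.0%) were also called higher in JUN cells, and 9 were called lower. Of the 2134 called lower, 1153 (54.0%) were also called lower and 2 were called higher. The difference between the inductions, tested as an interaction, was called for 165 genes (1.12%). Among genes called higher in vector cells 103 had a called difference, which was a weaker rise or a fall in JUN cells for 100 of them. Among genes called lower 35 had one, a weaker fall or a rise in JUN cells for 32. These genes were chosen for their change in vector cells, and the difference subtracts that same change. That choice by itself pushes the difference toward a weaker change in JUN cells, to an extent that was not tested. KRT15, for example, fell by 1.17 on the log2 scale in JUN cells and EHF fell by 1.02, where in vector cells KRT15 fell by 3.70 and EHF fell by 3.40 (interaction 2.53 and 2.38, edgeR Benjamini-Hochberg adjusted p 0.002 and 6.13e-05). SCNN1G fell by 3.36 in JUN cells, and its difference did not pass the test (adjusted p 0.463).

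**Figure D5:**
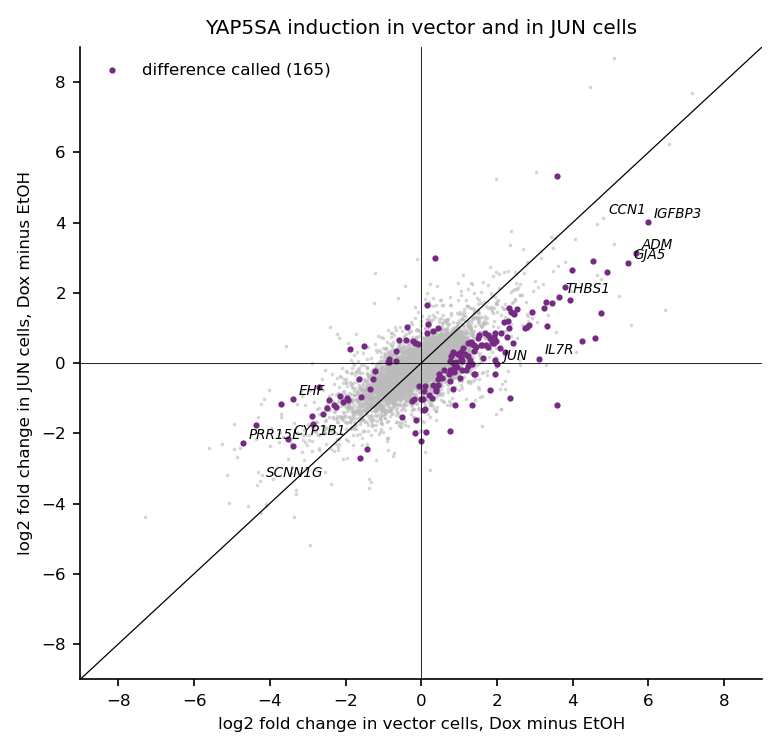
Log2 fold change on induction in vector cells (horizontal) and in JUN cells (vertical), 1 point per gene tested, with the line of equal change. Purple marks the 165 genes whose difference was called; most of them lie between the line and the horizontal axis.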

How the data were processed

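Poly(A) RNA was sequenced in single-end mode, and the authors trimmed reads with Cutadapt, aligned them to hg19 with Bowtie2 and counted overlaps per gene in R. The submitters' processing notes give Cutadapt 4.2 and Bowtie2 2.3.5.1, while the study's methods name an earlier Bowtie2 release. The authors deposited raw counts for 23459 Entrez genes. Annotation version and strand setting are not given in the sources used here. Bowtie2 does not split reads over introns, so junction reads can be lost, and genes that share exons can share reads.

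From these counts, genes passing filterByExpr (minimum count 10, total 15) were fitted with edgeR 4.0.16 in R 4.3.3 (TMM, robust quasi-likelihood, the 12 libraries with 4 group means), and vector Dox was compared with vector EtOH, with Benjamini-Hochberg adjustment over 14775 genes and a threshold of 0.05. SE is the fold change over the root of F. The fit was tested on simulated data. Members and gene lists were chosen with earlier results of these data known. Named were YAP1, JUN, the 12 highest and 12 lowest non-overlapping called genes of at least 5 CPM, the 6 highest outside the target lists, the 5 largest gains and losses per kilobase, and within a list the 3 largest changes in its main direction, the largest in the other and the most abundant member. Alternatives included DESeq2 1.42.0.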

Additional observations from a re-analysis of the deposited data

Results flagged for a closer look

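For 25 of the genes named above the induction differed between vector and JUN cells in the edgeR interaction test after Benjamini-Hochberg adjustment, given here as the log2 induction of JUN cells less the log2 induction of vector cells. The induction was smaller in JUN cells for ADM (-2.53), GJA5 (-2.61), IGFBP3 (-1.97), IL7R (-2.98), JUN (-2.03), THBS1 (-1.75), SEMA7A (-1.69), SFTA1P (-1.64), F3 (-1.55), LIF (-1.51), NRG1 (-1.35), CCND2 (-1.25), TPM1 (-1.20), CCND1 (-0.99), ETS1 (-0.98), CRY1 (-0.77), DUSP5 (-0.76) and CAV2 (-0.54). Among genes that fell in vector cells the change in JUN cells was shifted upward for KRT15 (2.53), PRR15L (2.43), EHF (2.38), CYP1B1 (1.35), PNRC1 (1.04) and PER2 (0.95). ADAMTS1 was the induced gene with a larger rise in JUN cells (1.72). Both inductions used separate libraries, and JUN itself is expressed from the vector in JUN cells. Many of these genes were named for large changes in vector cells, a choice that by itself favours a smaller change in JUN cells.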

How the results depend on the processing

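Against the 4443 calls reported, a test for changes beyond 1 on the log2 scale left 383 calls (163 higher and 220 lower), and with it the interaction had 17 calls. It left 5 higher Hippo genes, 7 lower glucocorticoid-responsive genes, 3 lower basal genes, 2 lower interferon genes, 2 lower clock genes and 1 lower antioxidant gene, and 0 higher genes of ribosome biogenesis, replication, mitosis, heat shock or cholesterol synthesis. With a minimum mean of 5 CPM the genes changed at least 2-fold were 231 higher and 329 lower, and 6 clock genes were lower. DESeq2 called 358 interactions, and upper-quartile factors left 7 higher cholesterol genes. Leaving out a library gave 97 (vector EtOH replicate 3) to 249 (vector Dox replicate 1) interactions and 4 to 10 higher cholesterol genes. MKI67, not called, changed sign without vector EtOH replicate 1 (0.078), EtOH replicate 3 (0.078) or Dox replicate 1 (0.33), and stood at -0.221 without Dox replicate 2. YAP1 passed the test when only the 6 vector libraries were fitted.

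The replicate numbers did not pair the samples, since deviations of same-numbered libraries correlated at -0.230, -0.258 and 0.106, and a fit with the number as a block gave 4588 calls.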
